A study of Mus musculus with 11 samples.

Results

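The genes described here are 46 genes of the cell division programme, 23 for DNA replication and entry into S phase and 23 for mitosis, chosen by name. All 46 are listed in each of the 3 deposited tables, which hold 16507, 14267 and 14910 genes, and all 46 passed the filter on low counts in each table. RNA was sequenced from mouse bone marrow cells labelled as stromal and sorted, with 11 samples in 4 groups. One group of 3 samples was adult and wild type, with the gate PDGFRa+CD51+. A group of 2 (replicates 2 and 3) was perinatal and wild type, with the gate PDGFRa+Sca1-. A group of 3 carried the knockout of Igf1r, the receptor for insulin-like growth factors, and was perinatal with the gate PDGFRa+Sca1+. The control group of 3 had that same gate, was also perinatal and was wild type. The wild-type PDGFRa+Sca1+ samples carry Cre-negative in their titles and the knockouts Cre-positive, so an effect of Cre cannot be told apart from the deletion. The design text calls the knockout cells perinatal, while their sort label gives no age and that of the other perinatal cells says postnatal. The promoter that drives Cre and the exact ages are not stated in the sources used here. Whether each sample is a separate animal is not labelled either, and p-values then measure only a spread among these samples that may be technical.

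Cells that divide copy their DNA in S phase and separate the copies in mitosis, and the genes for both steps are switched on in waves. Replication genes are classical targets of E2F factors held back by the retinoblastoma family. Mitosis genes are typically controlled later in the cycle through a CCAAT box bound by NF-Y and a cell cycle homology region (CHR) bound by the B-Myb and FoxM1 machinery. RNA of both sets marks cycling cells.

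Promoter sequences are shown to let the division between the lists be seen in the DNA. RefSeq promoter windows (GRCm38.p6, from 250 bases before to 50 bases after a start site, 300 bases in all) were found for 39 of the 46 genes, 20 of replication and 19 of mitosis. The stretches below hold the 150 bases before the start site, 5′ to 3′ on the strand of the gene. Capitals mark E2F words (TTTGGCGC, TTTCGCGC or TTTCCCGC), CHR words (TTTGAA or TTCGAA) and CCAAT, each on either strand, and words may overlap. The Mcm6 and Pola1 stretches belong to replication genes, and those of Cdc20, Cdk1 and Ube2c to mitosis genes. They are examples that hold an E2F word (replication) or a CHR word with CCAAT (mitosis), which not every gene of either list has.
Mcm6 (chr1:128359706-128359855, minus strand): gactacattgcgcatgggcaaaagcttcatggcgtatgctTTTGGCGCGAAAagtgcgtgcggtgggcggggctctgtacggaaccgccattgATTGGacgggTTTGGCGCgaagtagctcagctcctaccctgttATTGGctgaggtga
Pola1 (chrX:93632156-93632305, minus strand): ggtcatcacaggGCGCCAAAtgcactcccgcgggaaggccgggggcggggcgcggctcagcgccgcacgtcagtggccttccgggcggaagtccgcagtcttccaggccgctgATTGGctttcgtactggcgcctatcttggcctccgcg
Cdc20 (chr4:118437344-118437493, minus strand): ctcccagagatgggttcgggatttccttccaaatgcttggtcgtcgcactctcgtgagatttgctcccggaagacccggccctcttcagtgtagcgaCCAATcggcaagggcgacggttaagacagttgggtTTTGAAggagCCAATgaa
Cdk1 (chr10:69352913-69353062, minus strand): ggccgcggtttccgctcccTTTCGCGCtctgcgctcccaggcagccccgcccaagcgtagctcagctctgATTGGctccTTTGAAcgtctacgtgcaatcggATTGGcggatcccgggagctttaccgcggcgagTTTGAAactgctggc
Ube2c (chr2:164769779-164769928, plus strand): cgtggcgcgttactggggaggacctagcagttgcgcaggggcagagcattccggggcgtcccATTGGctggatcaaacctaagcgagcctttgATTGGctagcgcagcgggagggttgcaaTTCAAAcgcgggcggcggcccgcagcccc

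An E2F word was in a window of 9 of 20 replication genes (45.0%) and 1 of 19 mitosis genes (5.26%, Cdk1), against 573 of 27025 genes in the whole promoter table (2.12%). A CHR word was in 3 of 20 replication genes (15%) and 15 of 19 mitosis genes (78.9%), against 21.7% of all genes. CCAAT was in 11 of 20 replication genes (55.0%) and 17 of 19 mitosis genes (89.5%), against 41.1% of all genes. The pair of CHR and CCAAT, visible in the Cdc20, Cdk1 and Ube2c stretches, was in 10% of replication genes, 78.9% of mitosis genes and 9.65% of all genes. Birc5, Ccnb1, Cenpe and Nusap1 were the 4 mitosis genes with no CHR word. None of the words was in these windows for the replication genes Tk1, Tyms, Dut, Ccne1 and Rfc4 or for the mitosis genes Birc5 and Nusap1. A match describes letters in a window and is no evidence of binding.

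**Figure D1:**
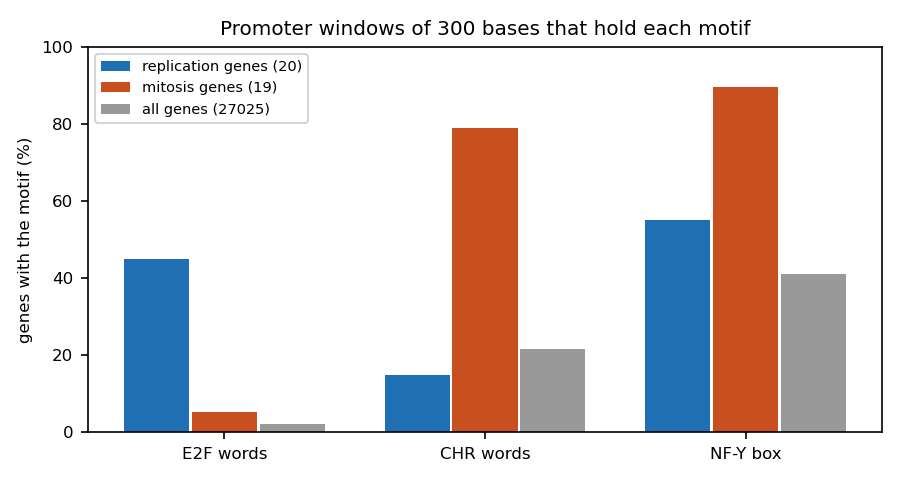
Percent of genes whose RefSeq promoter windows of 300 bases hold each motif, for the 20 replication genes and 19 mitosis genes with a window and for all 27025 genes of the table. E2F words stand at 45.0% in replication genes and 5.26% in mitosis genes, CHR words at 15% and 78.9%, and the NF-Y box (CCAAT) at 55.0% and 89.5%.

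Libraries held 13412316 to 23782217 counts, so that a floor of 3 counts per library equals 0.126 to 0.224 CPM (counts scaled to a common library total), for counting error only. The lowest count of any of the 46 genes was 23 in a library. Levels below are CPM scaled with TMM factors within a table, and a gene was called at a Benjamini-Hochberg adjusted p under 0.05 in edgeR's quasi-likelihood test over all genes of its table. The wild-type PDGFRa+Sca1+ libraries 2 and 3 serve in all 3 tables, so the comparisons share control libraries. Replicate 1 of that group is not the same library in the adult and the knockout tables: only 1.72% of genes had equal counts in both. Ly6a, the gene of Sca1, ran against the labels: it had 686 and 655 CPM in the labelled Sca1-negative libraries, against 13.5 and 10.05 CPM in the labelled Sca1-positive libraries. In the knockout table it had 732, 687 and 1002 CPM in the knockout libraries, against 448, 13.1 and 9.76 CPM in the control libraries. The adult table has no entry named Ly6a, and groups are called by their labels throughout. Igf1r had 7.81, 4.25 and 3.49 CPM in the knockout libraries, against 31.1, 29.9 and 29.9 CPM in the control libraries, without overlap. Its log2 fold change was -2.55 (SE 0.34, edgeR adjusted p = 0.0816), which was not called. Pdgfra, the gene of a marker of every sort gate, had 13.99, 11.9 and 13.3 CPM in the adult libraries, against 306, 256 and 309 CPM in the perinatal libraries. The Pdgfra level goes against the PDGFRa+ part of the adult label. Itgav, the gene of CD51, had 266, 240 and 283 CPM in the adult libraries, against 56.8, 51.8 and 54.5 CPM in the perinatal libraries. The stroma genes Lum and Dcn averaged 0.204 ± 0.181 and 4.93 ± 0.619 CPM in the adult libraries (SD, n = 3). The macrophage gene Lyz2 averaged 10949 ± 629 CPM there (SD, n = 3).

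The libraries labelled adult were compared with the perinatal libraries, a contrast of age by the labels. The sum of the stroma markers was lower on the adult side, although Itgav was higher there. RNA of the division programme was lower in the libraries labelled adult across nearly the whole set, with the lower median for mitosis. Of the replication genes 19 of 23 fell and none rose, and of the mitosis genes all 23 fell, where 39.7% of the 13757 genes tested fell, 37.4% rose and 77.1% were called in either direction. The median log2 fold change was -1.48 for replication and -1.91 for mitosis, against -0.06 for all genes tested. In bulk samples fewer cycling cells and less of this RNA per cycling cell cannot be told apart.

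The summed level of the 23 replication genes was 654, 614 and 602 CPM in the adult libraries, against 1345, 1469 and 1398 CPM in the perinatal libraries. The mitosis sum was 350.4, 297 and 254 CPM in the adult libraries, against 1084, 1149 and 1216 CPM in the perinatal libraries. The mitosis sum divided by the replication sum was 0.536, 0.484 and 0.422 in the adult libraries, against 0.806, 0.782 and 0.870 in the perinatal libraries. The groups did not overlap in either sum or in the ratio, which are descriptions with no test. Groups that do not overlap, with the adult libraries lower, were seen in 44 of the 46 genes, where 41.6% of all genes tested showed this.

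**Figure D2:**
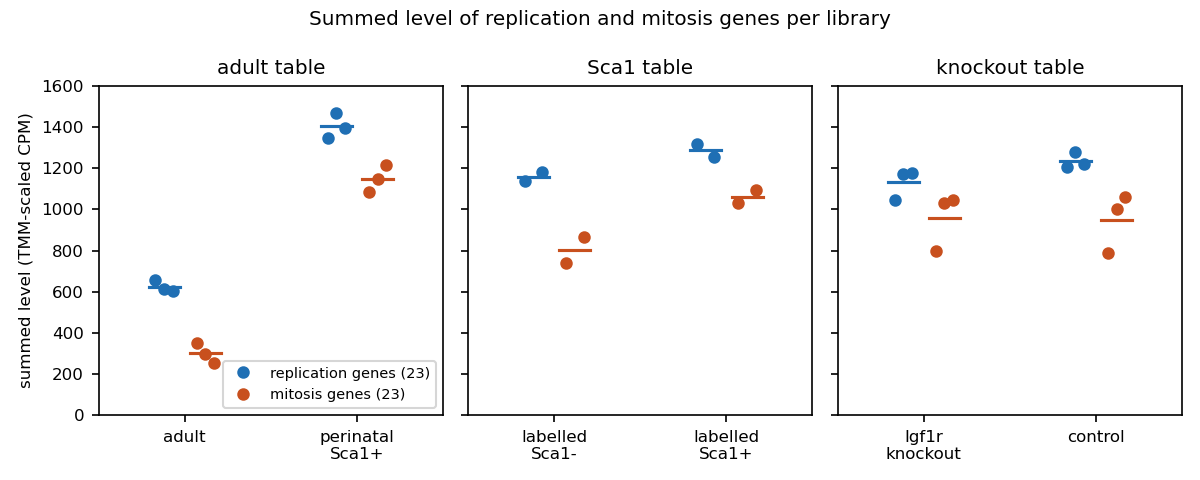
Summed TMM-scaled CPM of the 23 replication and 23 mitosis genes, one point per library and a bar at each group mean, with the 3 tables scaled separately. Adult libraries sit at 602 to 654 CPM for replication and 254 to 350.4 CPM for mitosis, below all perinatal libraries, while knockout and control libraries overlap for mitosis.

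Among replication genes the largest falls were those of Ccne1, Tk1, Dut, Tyms and Prim1. Dut, the dUTPase that keeps uracil out of DNA (ENSMUSG00000027203, chromosome 2, 125247190 to 125258608, plus strand of mm10), had 9.83, 11.3 and 10.02 CPM in the adult libraries, against 64.7, 58.8 and 57.8 CPM in the perinatal libraries. Its log2 fold change was -2.54 (SE 0.13, edgeR adjusted p = 2.58e-06), and every adult library lay below every perinatal one. Tyms, thymidylate synthase (ENSMUSG00000025747, chromosome 5, 30058202 to 30073617, minus strand), had 12.5, 13.9 and 13.6 CPM in the adult libraries, against 86.4, 69.4 and 64.6 CPM in the perinatal libraries. It fell with a log2 fold change of -2.46 (SE 0.15, edgeR adjusted p = 6.21e-06). Tk1, thymidine kinase, had a log2 fold change of -2.54, and Rrm2, the regulated subunit of ribonucleotide reductase, one of -1.83; both fell. Ccne1, the cyclin E that starts S phase, had the largest fall of the list, -3.28 (SE 0.25, edgeR adjusted p = 1.67e-05), while its relative Ccne2 changed by -1.39.

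The MCM helicase, which unwinds DNA at the fork, fell in all 6 subunits, Mcm2 to Mcm7. Mcm6 (ENSMUSG00000026355, chromosome 1, 128331590 to 128359664, minus strand) had 45.5, 41.5 and 40.2 CPM in the adult libraries, against 141, 132 and 122 CPM in the perinatal libraries. Its log2 fold change was -1.63 (SE 0.12, edgeR adjusted p = 1.30e-05). Mcm4 (ENSMUSG00000022673, chromosome 16, 15623897 to 15637400, minus strand) had 24.6, 22.1 and 21.9 CPM in the adult libraries, against 67.8, 82.4 and 82.96 CPM in the perinatal libraries. The log2 fold change of Mcm4 was -1.76 (SE 0.13, edgeR adjusted p = 1.51e-05), whereas Mcm2 and Mcm3 changed by -0.71 and -0.69. The loading factors Cdc6 and Cdt1 and the helicase partner Gins2 also fell, with log2 fold changes of -1.78, -1.29 and -1.31. At the fork, the primase Prim1 (log2 fold change -2.42), the clamp loader subunit Rfc4 (-2.01), the ligase Lig1 (-1.56) and the polymerase Pola1 (-0.89) fell.

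The 4 replication genes that were not called were Pcna, the sliding clamp, Rrm1, the large subunit of ribonucleotide reductase, Fen1, the flap nuclease, and Uhrf1, which recognises hemimethylated DNA. Pcna had 126, 142 and 123 CPM in the adult libraries, against 163, 166 and 145 CPM in the perinatal libraries, a log2 fold change of -0.28 (SE 0.12, edgeR adjusted p = 0.0667). Fen1 had 30.97, 30.1 and 29.3 CPM in the adult libraries, against 24.98, 31.6 and 35.8 CPM in the perinatal libraries, and its groups overlapped, as did those of Uhrf1. The log2 fold changes of Rrm1, Fen1 and Uhrf1 were -0.27, -0.03 and -0.50. In adult libraries the 2 subunits of ribonucleotide reductase differed in call, and the difference between them was not tested.

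In the mitosis list the largest falls were those of an activator of the anaphase-promoting complex and a B cyclin. Cdc20, which activates that complex (ENSMUSG00000006398, chromosome 4, 118432901 to 118437352, minus strand), had 13.4, 9.39 and 9.40 CPM in the adult libraries, against 152, 155 and 185 CPM in the perinatal libraries. It fell with a log2 fold change of -3.93 (SE 0.20, edgeR adjusted p = 2.53e-06), the largest among the 46 genes. Ccnb2, a cyclin partner of Cdk1 (ENSMUSG00000032218, chromosome 9, 70407692 to 70421547, minus strand), had 11.6, 8.30 and 6.98 CPM in the adult libraries, against 107, 85.4 and 89.4 CPM in the perinatal libraries. The log2 fold change of Ccnb2 was -3.38 (SE 0.22, edgeR adjusted p = 7.24e-06). Its pseudogene copy Ccnb2-ps held 6 to 14 counts per library of this table.

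Cdk1, the kinase that drives mitosis (ENSMUSG00000019942, chromosome 10, 69335146 to 69352938, minus strand), had 17.04, 15.4 and 15.3 CPM in the adult libraries, against 80.4, 88.3 and 90.98 CPM in the perinatal libraries. The log2 fold change of Cdk1 was -2.44 (SE 0.12, edgeR adjusted p = 2.53e-06). Birc5, the survivin subunit of the chromosomal passenger complex (ENSMUSG00000017716, chromosome 11, 117849251 to 117855743, plus strand), had 10.2, 5.69 and 6.77 CPM in the adult libraries, against 67.2, 65.04 and 62.5 CPM in the perinatal libraries. Birc5 fell with a log2 fold change of -3.10 (SE 0.22, edgeR adjusted p = 1.24e-05). These 4 mitosis genes separated the groups without overlap. The other cyclins Ccnb1 and Ccna2 fell, with log2 fold changes of -2.75 and -1.39.

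The mitotic kinases Aurkb, Aurka and Plk1 fell, with log2 fold changes of -2.49, -2.20 and -1.66, as did the checkpoint kinases Ttk, Bub1 and Bub1b at -1.23, -1.04 and -0.97. All 8 genes of the spindle and of cytokinesis fell, from Cenpf, a kinetochore protein (log2 fold change -2.43), to Kif11, the motor that pushes spindle poles apart, at -0.78 (SE 0.22, edgeR adjusted p = 0.0134). Between them lay Kif20a, Prc1, Nusap1, Cenpe, Kif23 and Tpx2. Ube2c, the ubiquitin-conjugating enzyme of the anaphase-promoting complex, fell as well (log2 fold change -2.17). The proliferation marker Mki67 and the topoisomerase Top2a had smaller falls, at -0.79 and -0.98.

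**Figure D3:**
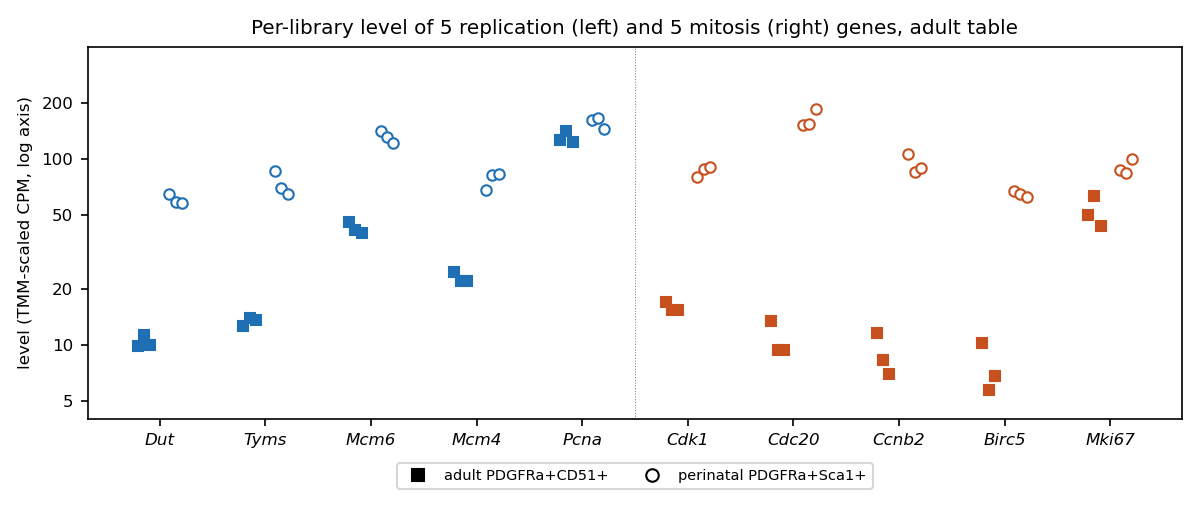
TMM-scaled CPM of each library of the adult table on a log axis for 5 replication and 5 mitosis genes, with filled squares for adult and open circles for perinatal libraries. Adult Cdc20 lies at 9.39 to 13.4 CPM and adult Mki67 at 43.5 to 63.4 CPM, while the Pcna groups lie close together.

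Per transcript length, levels in the authors' TPM were ordered differently in the groups. In adult libraries Pcna was the most abundant of the 46 genes, at 198 ± 12 TPM (SD, n = 3), followed by Cdk1 at 42.8 ± 2.14 TPM and Rrm1 at 38.2 ± 1.94 TPM, and the SD ranges of Cdk1 and Rrm1 did not overlap. In perinatal libraries Pcna at 149 ± 14.8 TPM, Cdk1 at 140 ± 24.7 TPM and Cdc20 at 126 ± 19.9 TPM led, and their SD ranges overlapped (n = 3). Cdc20 was at rank 23 in adult libraries and at rank 3 in perinatal ones. TPM put the median of all genes 0.50 higher on the log2 scale in adult libraries, and on that scale Pcna, Rrm1, Fen1 and Kif11 had higher adult means. The other 42 genes had lower adult means, some by little, such as Mki67 and Bub1 at -0.02 and -0.04. In TPM 16 replication and 17 mitosis genes lay lower in every adult library than in any perinatal one, fewer than in CPM. Pcna, Rrm1 and Fen1 lay higher without overlap. The share of all genes without overlap was not counted in TPM. The log2 medians over each whole list were -1.09 for replication and -1.27 for mitosis, or -1.59 and -1.78 relative to that of all genes.

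Genes of the same processes outside the 46 mostly fell too. Of 45 other replication genes 29 fell, 3 rose and 13 were not called, with a median log2 fold change of -1.28, where 39.7% of all genes fell and 77.1% were called. Examples are Rpa2, a subunit of the single-strand binding protein (log2 fold change -2.33), and Tipin, a fork protection factor (-3.05). Of 56 other mitosis genes 47 fell, 2 rose and 7 were not called, with a median of -1.47. The kinetochore gene Spc24 fell (log2 fold change -4.20), as did Cks1b (-3.82) and Cks2 (-3.68), which bind cyclin-dependent kinases. Among 29 tested regulators of the cycle 13 fell and 10 rose, near the shares of all genes (39.7% and 37.4%), so the counts are no result about regulators. Ccnd1, the G1 cyclin D1, rose to 298 ± 12.8 CPM in adult libraries, against 44.8 ± 4.83 CPM in the perinatal ones (SD, n = 3 per group). Myc was 29.2 ± 7.17 CPM in adult libraries, against 386 ± 86.5 CPM in the perinatal ones (SD, n = 3 per group). The retinoblastoma gene Rb1 and the CCAAT-binding subunit Nfya rose, with log2 fold changes of 3.54 and 4.70.

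Markers of other cell types moved with this comparison. The 12 macrophage markers summed to 23315 to 25102 CPM in adult libraries, against 27.3 to 35.2 CPM in perinatal libraries, and all 12 rose. The 12 erythroid markers summed to 0.760 to 1.55 CPM in adult libraries, against 848 to 1860 CPM in perinatal libraries, and Hba-a1, a globin gene, was at 0 in every adult library. The 10 stroma markers listed in this table summed to 4503 to 7227 CPM in adult libraries, against 82253 to 115698 CPM in perinatal libraries. Age, sort gate and cell makeup differed together and cannot be told apart, and the part of each in the fall of the division genes was not tested. Against perinatal library 1 alone, where the spread comes from the adult libraries only, 17 replication and 20 mitosis genes fell among 10564 of 14195 genes called. Kif11 lost its call there and in 3 of the 6 fits that left out a library.

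Cells labelled Sca1-negative were compared with cells labelled Sca1-positive, 2 libraries each, to ask how the sorted fractions differ. No gene of either list was called, where 4.41% of 13529 genes were called in edgeR's quasi-likelihood test (2.79% lower, 1.63% higher). For mitosis all 23 log2 fold changes were below 0, with a median of -0.41 against 0.01 for all genes. That median was -0.26 without labelled Sca1-negative library 2 (22 of 23 below 0) and -0.54 without library 3. In 22 of the 23, all but Ttk, both labelled Sca1-negative libraries lay under both labelled Sca1-positive libraries, where 25.8% of all genes showed this and 24.4% the opposite order. For replication genes 15 of 23 were below 0, with a median of -0.14, and in 10 of 23 both labelled Sca1-negative libraries were the lower ones. The replication median was -0.04 without labelled Sca1-negative library 3 and -0.07 without labelled Sca1-positive library 2. At an unadjusted p under 0.05 there were 3 replication and 5 mitosis genes, a share near that of all genes (2563 of 13529).

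The mitosis sum was 741 and 865 CPM in the labelled Sca1-negative libraries, against 1032 and 1093 CPM in the labelled Sca1-positive libraries. The replication sum was 1137 and 1182 CPM in the labelled Sca1-negative libraries, against 1319 and 1257 CPM in the labelled Sca1-positive libraries. The mitosis sum divided by the replication sum was 0.652 and 0.731 in the labelled Sca1-negative libraries, against 0.782 and 0.870 in the labelled Sca1-positive libraries. Library 2 labelled Sca1-negative was the lowest in both sums and in the ratio.

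The replication genes of highest level overlapped between groups in CPM. Pcna had 159.9 and 125 CPM in the labelled Sca1-negative libraries, against 149.5 and 131 CPM in the labelled Sca1-positive libraries. Mcm6 had 115 and 129 CPM in the labelled Sca1-negative libraries, against 118 and 109.8 CPM in the labelled Sca1-positive libraries. Rrm1 had 87.4 and 80.7 CPM in the labelled Sca1-negative libraries, against 88.1 and 77.96 CPM in the labelled Sca1-positive libraries, and the groups overlapped in all 3 genes. In the authors' TPM Mcm6 overlapped too, while Pcna and Rrm1 lay lower in both labelled Sca1-negative libraries. On that scale 19 of 23 replication genes were below 0 and 16 lay lower without overlap. The TPM median was -0.33 for replication and -0.14 for all genes, whose share without overlap was not counted. Cdt1, the licensing factor, stood apart in size: it had 37.5 and 38.7 CPM in the labelled Sca1-negative libraries, against 62.9 and 70.2 CPM in the labelled Sca1-positive libraries. Its log2 fold change was -0.80 (SE 0.17, edgeR adjusted p = 0.0587), just short of the threshold. Ccne1 had a log2 fold change of -0.58 (SE 0.18, edgeR adjusted p = 0.148) and Rrm2 of -0.47 (SE 0.17, edgeR adjusted p = 0.209).

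Among mitosis genes Cdc20 had 89.6 and 134 CPM in the labelled Sca1-negative libraries, against 139 and 166 CPM in the labelled Sca1-positive libraries. Top2a had 71.7 and 60.1 CPM in the labelled Sca1-negative libraries, against 81.3 and 81.4 CPM in the labelled Sca1-positive libraries. Ccnb2 had 68.6 and 68.3 CPM in the labelled Sca1-negative libraries, against 76.7 and 80.3 CPM in the labelled Sca1-positive libraries, and in all 3 genes the groups did not overlap, although Cdc20 of labelled Sca1-negative library 3 came close to the labelled Sca1-positive values. The log2 fold changes of Cdc20, Top2a and Ccnb2 were -0.45, -0.30 and -0.20, with edgeR adjusted p-values of 0.401, 0.439 and 0.593. Ube2c had the smallest adjusted p of the mitosis list, with 24.6 and 24.3 CPM in the labelled Sca1-negative libraries, against 38.5 and 42.00 CPM in the labelled Sca1-positive libraries. The log2 fold change of Ube2c was -0.72 (SE 0.18, edgeR adjusted p = 0.0807). Aurka, the spindle pole kinase, followed at -0.69 (SE 0.23, edgeR adjusted p = 0.167).

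Plk1 showed how far the labelled Sca1-negative pair differed within itself, with 10.5 and 23.6 CPM in the labelled Sca1-negative libraries, against 25.03 and 26.8 CPM in the labelled Sca1-positive libraries. Without labelled Sca1-negative library 3 the number of genes called was 22 of the 46, 9 of replication and 13 of mitosis, all lower, but 4835 of all genes were called too. Without labelled Sca1-negative library 2 it was 4 (Ccne1, Cdt1, Rrm2 and Ube2c) among 2257. The lone library is then assumed to vary like the other pair. DESeq2, which called more genes over the whole table than edgeR, called Cdt1 alone of the 46 genes, and lower (adjusted p = 0.0214).

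Erythroid markers summed to 329 and 956 CPM in the labelled Sca1-negative libraries, against 1273 and 1671 CPM in the labelled Sca1-positive libraries. Stroma markers summed to 71162 and 82187 CPM in the labelled Sca1-negative libraries, against 97137 and 103998 CPM in the labelled Sca1-positive libraries. The sums of erythroid and of stroma markers had the same library order as the mitosis sums. Cartilage markers summed to 705 and 808 CPM in the labelled Sca1-negative libraries, against 6727 and 8050 CPM in the labelled Sca1-positive libraries, and all 12 tested fell. Osteoblast markers summed to 175 and 112 CPM in the labelled Sca1-negative libraries, against 6350.2 and 5974 CPM in the labelled Sca1-positive libraries, and 9 of 10 fell. The part of these cells in the mitosis levels was not tested. Of 56 other mitosis genes 50 were below 0, with a median log2 fold change of -0.35, and of 45 other replication genes 28, with a median of -0.11, and none was called. Ccnd2, the G1 cyclin D2, had 429 and 451 CPM in the labelled Sca1-negative libraries, against 778 and 880.1 CPM in the labelled Sca1-positive libraries, a log2 fold change of -0.91 (SE 0.19, edgeR adjusted p = 0.0506).

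**Figure D4:**
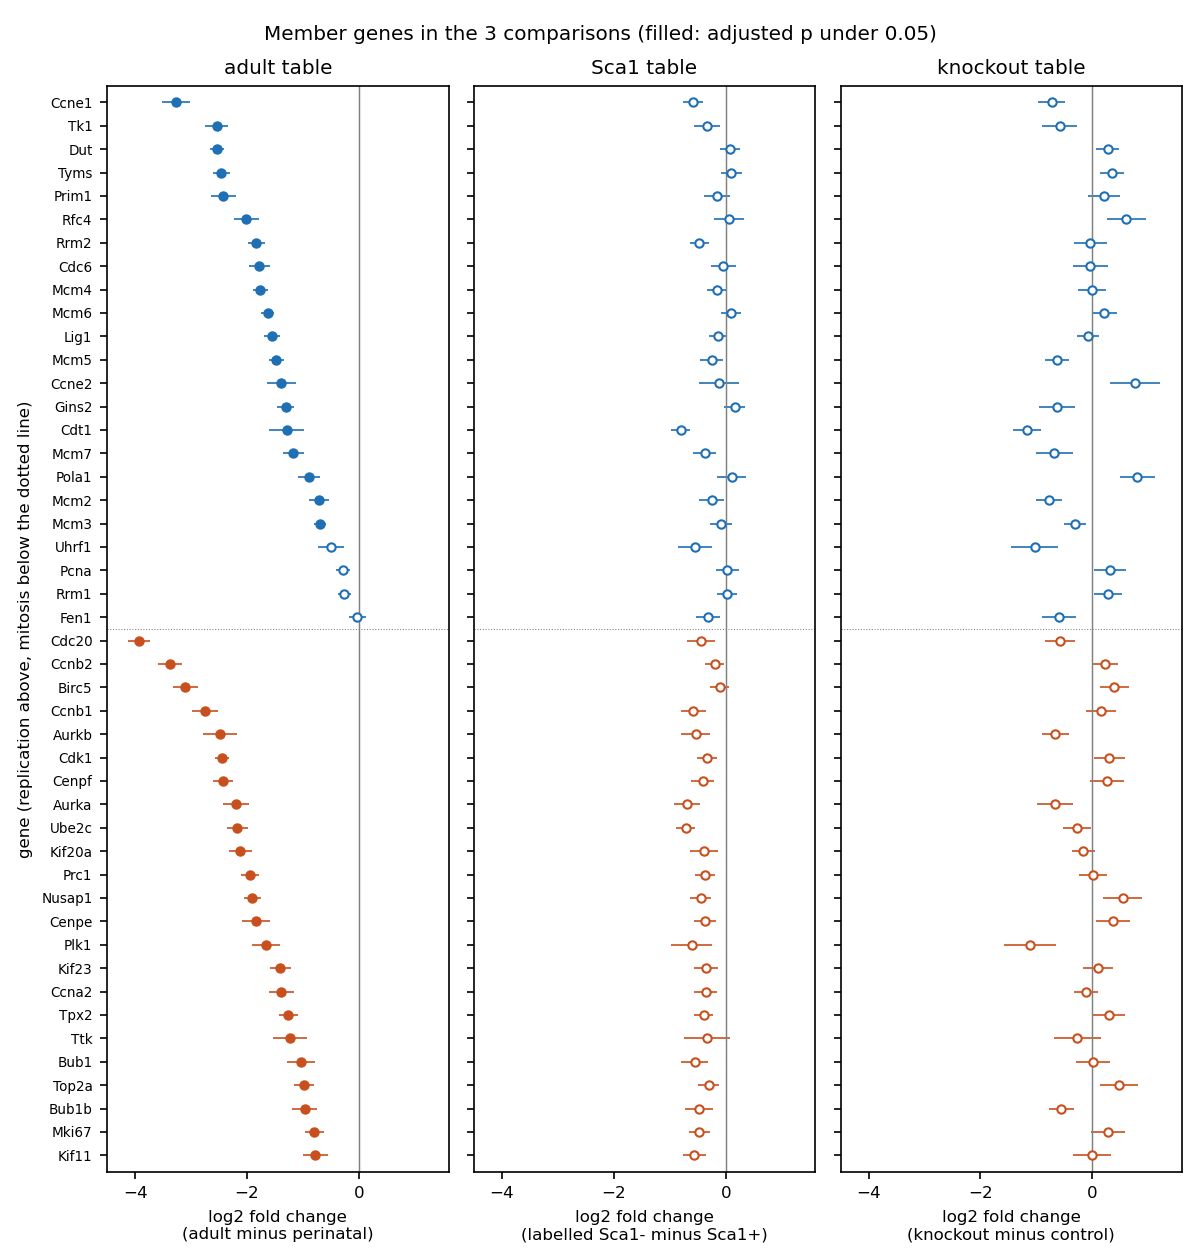
Log2 fold change with its SE for the 46 genes in the 3 comparisons, with filled points where the edgeR adjusted p was under 0.05. Points right of 0 are higher in the adult, labelled Sca1-negative or knockout libraries. All 23 mitosis genes lie left of 0 in the adult table and in the Sca1 table, while among knockouts 10 lie left and 13 right.

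Igf1r knockout cells were compared with control cells, of which libraries 2 and 3 also differed from the knockouts in Ly6a. No gene of either list was called, where 0.0368% of 13590 genes were called (5 lower, none higher), and 2963 genes had an unadjusted p under 0.05. The median log2 fold change was -0.04 for replication, with 14 of 23 below 0, and 0.01 for mitosis, with 10 of 23 below 0, against -0.03 for all genes. Leaving out 1 library moved both: they were -0.18 and -0.17 without control library 1, 0.05 and 0.18 without control library 2, 0.01 and 0.10 without control library 3, and 0.09 and 0.14 without knockout library 1. The replication median was -0.17 without knockout library 3 and -0.07 without knockout library 2, and the mitosis medians in those fits were -0.01 and 0.02. At an unadjusted p under 0.05 there were 6 replication and 3 mitosis genes in edgeR's quasi-likelihood test, and DESeq2 called 2 replication genes among 999 genes.

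The replication sum was 1044, 1174 and 1176 CPM in the knockout libraries, against 1205, 1279 and 1220 CPM in the control libraries, without overlap. The mitosis sum was 796, 1033 and 1048 CPM in the knockout libraries, against 786, 1000 and 1062 CPM in the control libraries, with the groups intermixed. Knockout library 1 and control library 1 were the lowest of their groups in both sums. The mitosis sum divided by the replication sum was 0.763, 0.879 and 0.891 in the knockout libraries, against 0.652, 0.782 and 0.870 in the control libraries.

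Single genes within the lists lay on opposite sides. Pcna had 109, 163 and 221 CPM in the knockout libraries, against 124, 145 and 127 CPM in the control libraries, a log2 fold change of 0.32 with a 95% interval (normal, from the SE) of -0.25 to 0.89. Mcm6 had 105, 137 and 123 CPM in the knockout libraries, against 92.9, 115 and 107 CPM in the control libraries. Rrm1 had 71.1, 107 and 96.6 CPM in the knockout libraries, against 64.2, 85.4 and 75.7 CPM in the control libraries, and in all 3 genes the groups overlapped. Cdt1 had 34.9, 25.9 and 20.97 CPM in the knockout libraries, against 55.4, 60.98 and 68.2 CPM in the control libraries, all knockouts below all controls. Its log2 fold change was -1.17 (SE 0.25, edgeR adjusted p = 0.176), with a 95% interval of -1.67 to -0.68. DESeq2 called Cdt1 (adjusted p = 0.00377) and Mcm2 (adjusted p = 0.0486) lower.

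Within the MCM helicase Mcm2, Mcm3, Mcm5 and Mcm7 lay lower in every knockout library than in any control library, with log2 fold changes of -0.77, -0.31, -0.64 and -0.68, while Mcm4 and Mcm6 were at -0.01 and 0.21. Mcm2 had 41.1, 37.9 and 27.9 CPM in the knockout libraries, against 66.5, 57.6 and 58.8 CPM in the control libraries. Uhrf1, Ccne1 and Tk1 did not overlap either, at -1.03, -0.72 and -0.59. Tyms and Dut lay higher in every knockout library, at 0.36 and 0.27. In all, 8 replication genes lay lower and 2 higher without overlap, where 14.1% of all genes lay lower and 14.9% higher. Pola1 had the highest log2 fold change of the list, 0.80 (SE 0.31, edgeR adjusted p = 0.202), with overlapping groups.

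Among mitosis genes Cdc20 had 111, 118 and 67.8 CPM in the knockout libraries, against 148, 135 and 161 CPM in the control libraries. Its log2 fold change was -0.58 (SE 0.27, edgeR adjusted p = 0.247). Top2a had 59.7, 105 and 119.8 CPM in the knockout libraries, against 46.01, 78.9 and 79.1 CPM in the control libraries. Mki67 had 59.2, 91.6 and 108 CPM in the knockout libraries, against 53.1, 73.6 and 87.7 CPM in the control libraries, so that both of these markers overlapped between groups and had their highest values in knockout library 3. The log2 fold changes of Top2a and Mki67 were 0.48 (95% interval -0.18 to 1.14) and 0.27 (-0.32 to 0.87). The 5 mitosis genes without overlap, all lower in knockouts, were Cdc20, Plk1, Aurka, Aurkb and Bub1b. Of all genes tested, 14.1% lay lower and 14.9% higher without overlap. Plk1 had 20.2, 12.5 and 4.80 CPM in the knockout libraries, against 30.9, 24.3 and 26.05 CPM in the control libraries, a log2 fold change of -1.12 (SE 0.46, edgeR adjusted p = 0.219).

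The direction went with the base composition of the transcripts, whose part in the result was not tested. All 13 genes that lay lower without overlap had transcripts of 50.4% GC or more. Of the 18 genes with at least 50% GC, 17 lay below 0, with a median log2 fold change of -0.64, and of the 28 under 50% GC, 7 lay below 0, with a median of 0.24. Across genes, which are not independent replicates, the log2 fold change and GC content had a Spearman correlation of -0.87 over the 23 replication genes, -0.58 over the 23 mitosis genes and -0.53 over all 13590 genes. Among all genes with at least 50% GC 72.9% lay below 0, with a median of -0.37. Among all genes under 50% GC 28.6% lay below 0, with a median of 0.32. Over all genes the correlation was -0.03 for adult against perinatal and -0.14 between the Sca1 labels. Over the 23 replication and the 23 mitosis genes it was 0.13 and -0.42 for adult against perinatal, and -0.52 and -0.22 between the Sca1 labels.

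The libraries themselves differed in this way. The correlation of GC content with the deviation of a library from the mean of the table was 0.42, -0.51 and -0.60 in the knockout libraries, against 0.64, 0.20 and 0.31 in the control libraries. In the Sca1 comparison it was -0.37 and 0.28 in the labelled Sca1-negative libraries, against 0.04 and 0.22 in the labelled Sca1-positive libraries. Knockout library 1 was the only knockout with a value above 0, as all 3 controls had. Without it 7 of the 46 genes were called, among 3003 of all genes: Cdt1, Mcm2, Mcm5, Mcm7, Uhrf1 and Plk1 lower and Pola1 higher. With offsets for GC content per library, added after the data were seen, none of the 46 was called, the medians were -0.11 and -0.16, and Cdt1, Mcm2, Plk1 and Pola1 were at -0.54, -0.35, -0.76 and 0.34.

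**Figure D5:**
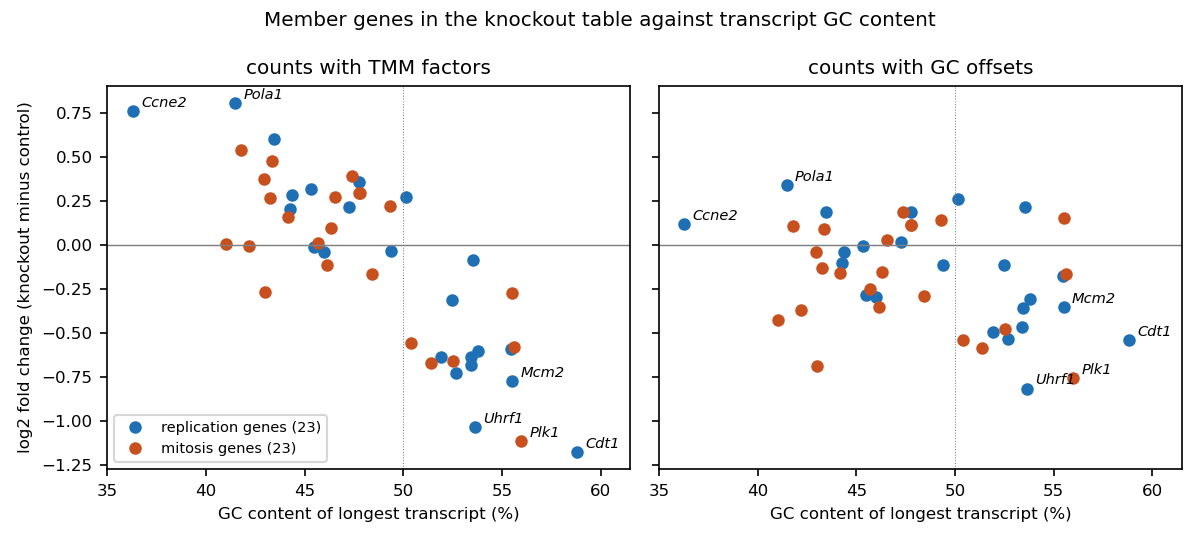
Log2 fold change of the 46 genes in the knockout table against the GC content of their longest transcript, with TMM factors (left) and with GC offsets per library (right). On the left 17 of the 18 genes at or above 50% GC, right of the dotted line, lie below 0, and on the right Cdt1 lies at -0.54 and Pola1 at 0.34.

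Against control library 1 alone, the control with high Ly6a, the medians were 0.15 for replication and 0.47 for mitosis, and no gene was called. Cdt1 and Plk1 were then at -1.03 and -1.31, and Top2a and Nusap1 at 1.04 and 1.18. Erythroid markers summed to 160 to 238 CPM in knockout libraries, against 1234 to 1623 CPM in control libraries, and 4 of the 10 tested, the globin genes, fell. Cartilage markers summed to 773, 518 and 507 CPM in the knockout libraries, against 1023, 6521 and 7819 CPM in the control libraries. Osteoblast markers summed to 289, 138 and 269 CPM in the knockout libraries, against 109, 6155 and 5802 CPM in the control libraries. Against control libraries 2 and 3, genotype, Ly6a and these markers differed together and cannot be told apart. The part of each in the division genes was not tested. Of 45 other replication genes 20 were below 0 (median 0.07) and of 56 other mitosis genes 25 (median 0.10), and none was called.

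Reads of some of the 46 genes may include those of a gene on the other strand, since exons overlap and the strand setting is not given in the sources used here. This holds for Mcm7, Gins2, Ccne2, Rfc4, Fen1, Lig1, Tk1, Ccna2, Cdc20, Plk1, Kif20a, Nusap1, Prc1 and Ube2c. Cdc20 shares exon positions with Elovl1 and Ube2c with Tnnc2, so their values are less certain than those of Cdk1, Ccnb2 or Birc5.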

How the data were processed

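PolyA RNA of mouse bone marrow cells sorted and labelled as stromal was sequenced in 11 samples. The authors deposited 3 tables of raw counts per gene, per the file headers. The submitters' processing notes name Trimmomatic 0.32, DESeq2 and mm10. Aligner, counter, annotation and strand setting: not given in the sources used here. For 2 tables the authors also deposited TPM, which give levels per transcript length only. A further 6 per-sample columns, log-scale values in the knockout table, were not used.

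Each table was fitted by itself with edgeR 4.0.16 in R 4.3.3 (filterByExpr, TMM factors, robust quasi-likelihood test, group as the only term), with Benjamini-Hochberg adjustment over all genes tested. SE is the log2 fold change divided by the square root of F. The fit was tested on simulated data. Alternatives were other scalings, DESeq2 1.42.0, no filter, thinned counts, left-out libraries, a replicate block, and, added after the data were seen, library totals and GC offsets (lowess, span 0.3). GC content, coordinates and exon overlaps are from GENCODE M21 (GRCm38, the assembly of mm10), which matched 16506 of 16507, 14267 of 14267 and 14910 of 14910 identifiers.

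The 46 genes and all gene lists were chosen with earlier results of these data known. Named genes were the 4 called genes per list with the smallest adjusted p, or the 3 of highest mean CPM where none was called, and up to 4 called genes of other lists. Other values of the 46 are examples. Total counts per library, 13412316 to 23782217, limit the precision.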

Additional observations from a re-analysis of the deposited data

How the results depend on the processing

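In the adult comparison the counts of lower genes ran from 19 to 20 for replication and from 22 to 23 for mitosis when 1 library was left out. Upper quartile factors added Pcna, Rrm1 and Uhrf1 (22 of replication), GC offsets added Pcna and Rrm1 (21), and library totals lost Kif11 and put Rrm1 and Fen1 above 0, with the median of all genes at 0.21. That median moved to -0.19 with upper quartile factors and to -0.20 with DESeq2, and relative to it the lists lay between -1.42 and -1.24 (replication) and between -1.85 and -1.66 (mitosis) under these scalings.

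In the Sca1 comparison the genes called over the whole table were 1012 with DESeq2, 1369 with a replicate block and 907 with GC offsets, against 597, and 484 to 4835 when 1 library was left out. Lower replication genes were 1 with DESeq2, 1 with the block and 1 with library totals (Cdt1 each time), and 0 to 9 with a library left out. Lower mitosis genes were 1 with the block (Ube2c) and 0 to 13 with a library left out.

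In the knockout comparison the genes called were 999 with DESeq2, 0 with the replicate block, 8 with thinned counts, 0 against control library 1 alone and 3 with GC offsets, against 5, and 0 to 3003 with a library left out. Lower replication genes were 2 with DESeq2 and 0 to 5 with a library left out. Higher replication genes were 0 to 1 and lower mitosis genes 0 to 1 with a library left out. The 3003 came without knockout library 1, and 306 were called without control library 1. The 4835 came without labelled Sca1-negative library 3, and 2257 were called without library 2. The cause of these changes was not tested.

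Whether replicate numbers pair the samples is not labelled. Deviations of same-numbered libraries correlated at -0.02, -0.02 and 0.19 in the adult table and 0.19, 0.12 and 0.05 in the knockout table. In both of these tables not every library correlated best with its own number. In the Sca1 table same numbers correlated at 0.30 and unlike numbers at -0.30, values tied to each other where a group has 2 libraries. These correlations do not settle whether the samples are paired. The block left 19 replication and 23 mitosis genes lower in the adult comparison. Of 1978 fits of single genes under the alternatives 1842 kept direction and call, 46 gained and 9 lost a call, and 81 uncalled values changed sign. No called value changed sign. With 2 or 3 libraries per group, small differences may go uncalled, also in genes of few counts such as Ttk and Ccne2. In the knockout table larger ones went uncalled too, with Igf1r at -2.55 and Cdt1 at -1.17.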
